A study of Mus musculus with 2 samples.

Results

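The clustered protocadherins are cell-surface adhesion proteins encoded by 3 neighbouring gene clusters, alpha, beta and gamma, on mouse chromosome 18. The members were the genes annotated as protein-coding in GENCODE M21 (GRCm38) whose symbol starts with Pcdha, Pcdhb or Pcdhg. They numbered 57 of 21755 protein-coding genes on the 19 autosomes and the X chromosome: 14 alpha, 22 beta and 21 gamma genes. A further gene with a matching symbol, Pcdhgb8, is annotated as a polymorphic pseudogene and was left out. All 57 lie on the + strand. The symbol Pcdha11 stands on 2 alpha records, and RefSeq names the first of them, which starts at 37005203, Pcdha10.

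The chromosome contacts came from mature olfactory sensory neurons that express the odorant receptor gene Olfr16 (MOR23), sorted by fluorescence out of olfactory epithelium taken from adult MOR23-GFP mice. The labels give both sexes, no treatment, no further modification and an unspecified strain, and they do not say how many animals were pooled. In situ Hi-C, which joins and sequences pieces of DNA that touch inside the nucleus, was run on 28000 cells (replicate 1) and 24400 cells (replicate 2), cut with DpnII. The 2 replicates form 1 group, so the series holds no contrast between conditions.

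The values are 1 list of 7435 boundaries, each an interval of 5 kb that the authors called on contacts of both replicates combined, with a class (Strong or Weak) and a score. A boundary separates neighbouring stretches of chromosome that contact themselves more than each other. A higher score stands for a boundary the authors' caller rated stronger, and in this list the class splits the score at 0.5. The score is the authors' own and was used only to rank boundaries within the list. No value exists per replicate and the read depth is unknown, so no spread between replicates and no test can be given, and every comparison below is a description. The list holds no expression values, so the labelled cell type could not be checked against its markers.

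Each alpha and gamma gene joins its own large variable exon, which encodes the extracellular cadherin repeats, to constant exons shared by the whole cluster, whereas beta genes have no constant exons. A neuron transcribes a small and largely random set of the variable promoters, and the resulting surface code lets its branches recognise and avoid each other. Olfactory sensory neurons need this diversity for their axons to sort into glomeruli. The C-type genes (Pcdhac1, Pcdhac2, Pcdhgc3, Pcdhgc4 and Pcdhgc5), at the end of the alpha and gamma clusters, are not chosen in this random way. The insulator protein CTCF, which halts the loop-forming cohesin ring in an orientation-dependent way, binds in the variable region of the alpha cluster and in a distal enhancer beyond its constant exons.

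The 3 clusters together spanned 911.7 kb, from 36930184 to 37841873. The alpha cluster covered 257.5 kb, the beta cluster 259.5 kb (37264938 to 37524479) and the gamma cluster 180.1 kb (37661793 to 37841873). The alpha cluster ended 77.3 kb before the beta cluster, and the beta cluster ended 137.3 kb before the gamma cluster. The median distance between successive starts was 7.32 kb in alpha, 7.78 kb in beta and 5.35 kb in gamma, and the shortest steps were 5.51, 4.25 and 4.13 kb. The widest steps were 69.9 kb between Pcdha12 and Pcdhac1, 45.7 kb between Pcdhb8 and Pcdhb9, and 40.8 kb between Pcdhga12 and Pcdhgc3. In alpha and gamma the widest step therefore set the C-type genes apart from the others.

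Of the 7435 boundaries 3 lay within this span, or 3.29 per Mb against 2.86 on chromosome 18. Each had a different place relative to the clusters. The first (37050001 to 37055000) lay inside the alpha cluster, 29.9 kb after the start of Pcdha12 and 35.0 kb before that of Pcdhac1. It was Weak with a score of 0.219, which ranked 7004 in the list and 250 of 259 on chromosome 18. Only 5.80% of all boundaries scored lower. It falls in introns of all 12 alpha records that start before it.

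The boundary between alpha and beta was the only Strong one within the span. It lay at 37215001 to 37220000, 27.3 kb after the end of the alpha cluster and 44.9 kb before Pcdhb1, outside every member. Its score of 1.16 was above 81.7% of the list, with rank 1359, and ranked 49 on chromosome 18. The third boundary (37640001 to 37645000) lay between beta and gamma, 115.5 kb after the end of Pcdhb22 and 16.8 kb before Pcdhga1. It was Weak, with a score of 0.369 and rank 4850, and it holds the whole of Taf7, a gene on the opposite strand that encodes a subunit of the general transcription factor TFIID.

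The 2 highest scores of the region stood outside the clusters. The last boundary before the clusters (36810001 to 36815000) was Strong with a score of 2.44, rank 93 in the list and rank 3 on chromosome 18, with 98.7% of the list lower. It lay 115.2 kb before Pcdha1, which encodes the first alpha protein, and the nearest protein-coding start was that of Zmat2, 16.1 kb away. After the gamma cluster a Weak boundary (37880001 to 37885000, score 0.421) stood 38.1 kb beyond its end, in an intron of Diaph1, a formin that nucleates actin filaments. A Strong boundary followed 128.1 kb beyond the end, at 37970001 to 37975000 in an exon of Arap3, with a score of 1.67 and rank 545. Its nearest protein-coding start, that of Fchsd1, lay 0.227 kb away.

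**Figure D1:**
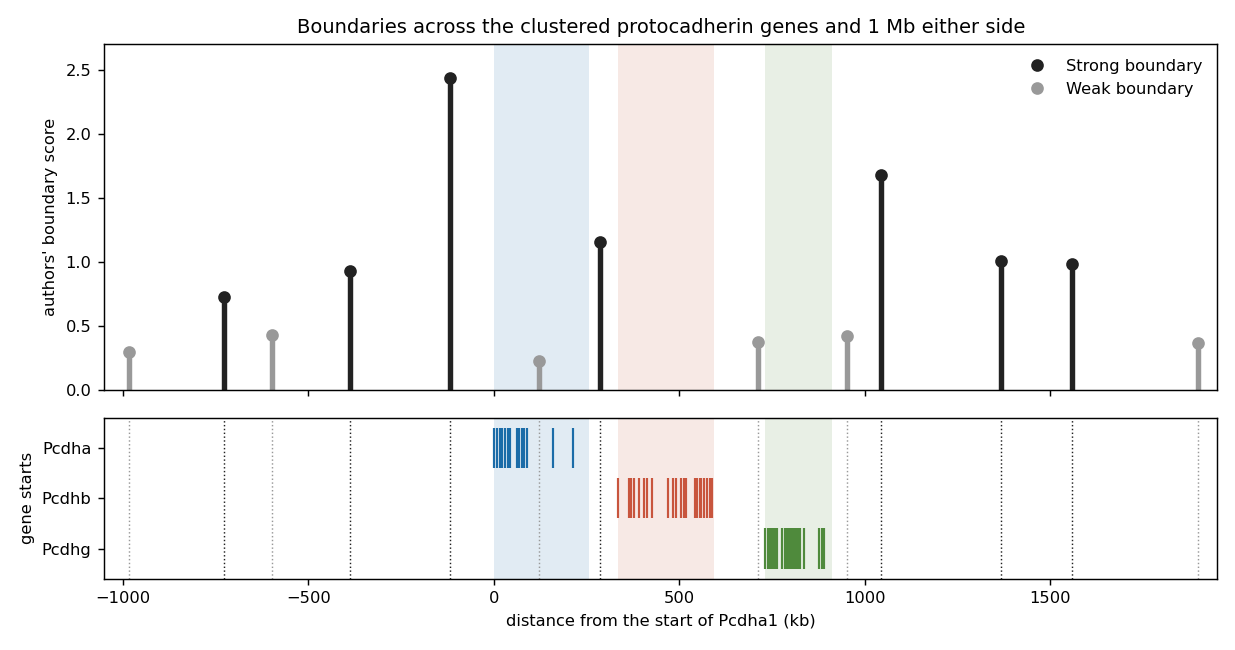
Boundaries over the clusters and 1 Mb either side. Upper panel: the authors' boundary score (vertical axis, no unit) against distance from the start of Pcdha1 in kb, black for Strong and grey for Weak, with the alpha, beta and gamma clusters shaded blue, red and green. Lower panel: the start of each of the 57 genes as a tick, with the boundaries as dotted lines. The highest score, 2.44, stands before the alpha cluster, and the 3 boundaries within the span score 0.219, 1.16 and 0.369.

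Across the span and 1 Mb either side there were 13 boundaries, of which 7 were Strong (53.8%). The share over the whole list was 51.8%, and over chromosome 18 it was 54.1% (140 of 259), so the region was near its background in this respect. Within the span 1 of 3 was Strong, against 6 of 10 in the flanks (60.0%, exact 95% interval 26.2 to 87.8%). The median score was 0.369 within the span, 0.825 in the flanks, 0.563 on chromosome 18 and 0.520 in the list. With 3 boundaries the first of these medians is the score of the boundary at Taf7 alone.

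Of the remaining 7 boundaries of the flanks, 4 were intergenic and 3 lay in Slc4a9, Rnf14 and an intron of Arhgap26. Before the clusters they scored 0.291 (Weak, nearest start Psd2, 14.8 kb), 0.726 (Strong, Nrg2, 2.62 kb), 0.426 (Weak, Cystm1, 7.52 kb) and 0.924 (Strong, Slc4a9, 11.9 kb). Nrg2 encodes a neuregulin and Slc4a9 an anion exchanger. After the clusters they scored 1.00 (Strong, Rnf14, 10.5 kb), 0.981 (Strong, Ndfip1, 74.6 kb) and 0.365 (Weak, Fgf1, 99.5 kb). Fgf1 encodes a fibroblast growth factor, and the boundary nearest to it is the one in Arhgap26. Of these 7 boundaries the one closest to a member was that in Slc4a9, 385.2 kb from Pcdha1.

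The boundaries split the 57 genes into 4 intervals, and no interval held genes of more than 1 cluster. Pcdha1 to Pcdha12 (12 records) started between 36815001 and 37050000, an interval of 235.0 kb. Pcdhac1 and Pcdhac2 had the next 160.0 kb (37055001 to 37215000) to themselves. All 22 beta genes started in 1 interval of 420.0 kb (37220001 to 37640000), and all 21 gamma genes in 1 interval of 235.0 kb (37645001 to 37880000). The alpha cluster was thus the only one with a called boundary between its genes, and that boundary set the C-type alpha genes apart from the others. The C-type gamma genes shared the interval of the other gamma genes.

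The beta, gamma and larger alpha intervals held many starts against the list's median of 2. The interval of Pcdhac1 and Pcdhac2 did not: its 2 starts equal that median, and 51.2% of intervals held as many or more. The median interval of the list was 260.0 kb long and held 2 protein-coding starts. The beta interval was longer than 77.1% of the 7415 intervals and held 23 starts, the 22 members and Slc25a2, a mitochondrial ornithine carrier. As many starts or more were found in 46 intervals, 0.620% of all. The gamma interval was longer than only 42.9% of intervals and held 21 starts, all members, a number reached by 57 intervals (0.769%). The interval of Pcdha1 to Pcdha12 held 15 starts, which include 3 unnamed read-through records (Gm42416, Gm37013 and Gm37388), and 150 intervals (2.02%) held as many.

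Counted per length, the gamma genes were the more tightly packed. Their interval held 8.94 starts per 100 kb, rank 6 among the 70 intervals of the list with at least 20 starts. The beta interval, at 5.48 starts per 100 kb, had rank 24. The interval of Pcdha1 to Pcdha12 held 6.38 per 100 kb. The interval just before it (36545001 to 36810000), without protocadherins, held 16 starts at 6.04 per 100 kb. Density was not ranked over all intervals of the list. The fullest interval of the list, on chromosome 7 and with vomeronasal receptor genes, held 88 starts at 2.48 per 100 kb.

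**Figure D2:**
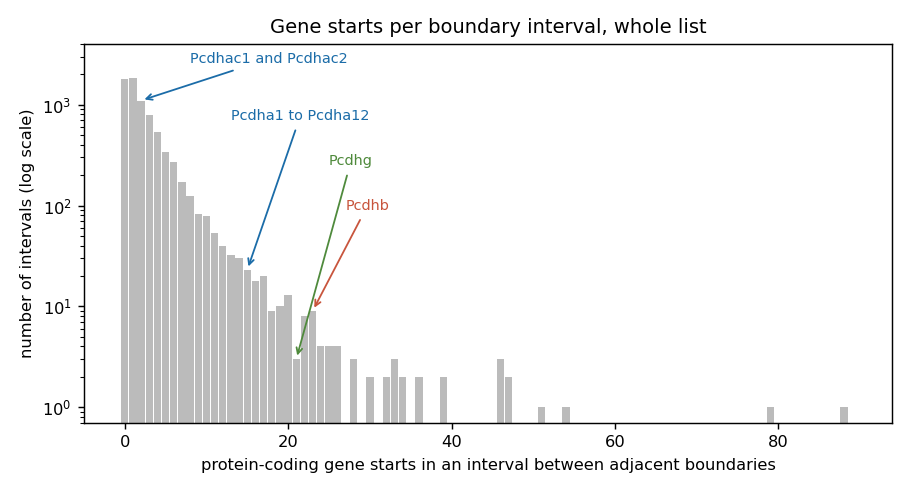
Number of intervals between adjacent boundaries (vertical axis, log scale) by the number of protein-coding gene starts they hold (horizontal axis), for all 7415 intervals of the list. Arrows mark the intervals with Pcdhac1 and Pcdhac2 (2 starts), Pcdha1 to Pcdha12 (15), the gamma genes (21) and the beta genes (23), against a median of 2.

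When only Strong boundaries were kept, both divisions made by Weak boundaries disappeared. All 14 alpha genes then started in 1 interval of 400.0 kb (36815001 to 37215000). The 22 beta and 21 gamma genes shared an interval of 750.0 kb (37220001 to 37970000) with 49 starts, a number that 15 of 3834 such intervals (0.391%) reached. Its other 6 genes were Slc25a2, Taf7, Diaph1, Rell2, Hdac3 and Fchsd1. The Strong boundary between alpha and beta remained the only division between clusters. Which clusters share an interval hence depended on the class of boundary counted.

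No member started within 10 kb of a boundary. The count of 0 of 57 allows a share of up to 5.26% when 3 counts are taken as the limit, and the exact 95% interval reaches 6.27%. Both cover counting error only, and the genes are neighbours and share their boundaries, so they are not 57 independent draws. Over all protein-coding genes the share was 12.4% (2692 of 21755), and over the 513 on chromosome 18 it was 9.75%. Within 25 kb there were 2 members, Pcdhga1 and Pcdhga2, against 24.6% of all genes. Within 50 kb there were 12 (21.1%), against 44% of all genes.

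Far distances were mostly those of beta genes. Over 100 kb from a boundary were 18 of 22 beta genes, 3 of 14 alpha genes and 4 of 21 gamma genes (25 of 57 members), against 27.6% of all genes. The alpha and gamma shares were below that background and the beta share above it. The median distance was 89.6 kb for the members (quartiles 60.5 and 122.1 kb, range 16.8 to 204.4 kb), and 58.4 kb for all genes (quartiles 25.6 and 107.8 kb). The 3 clusters overlapped in distance. Medians were 73.8 kb in alpha, 139.4 kb in beta and 69.8 kb in gamma.

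Within alpha, the distance fell along the cluster towards the boundary in its middle. Pcdha1 was the farthest at 115.2 kb and the only gene before Pcdhac2 whose nearest boundary was the Strong one in front of the cluster. Pcdha2 lay 110.8 kb, Pcdha5 89.6 kb, Pcdha8 57.6 kb and Pcdha12 29.9 kb from the Weak boundary. Past it, Pcdhac1 lay 35.0 kb from the same boundary. Pcdhac2 lay 71.5 kb from the Strong boundary between alpha and beta, and 88.5 kb from the Weak one.

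Within beta, the distance rose to the middle of the cluster and fell again, since all 22 genes stood between the same pair of boundaries. Pcdhb1 was the nearest at 44.9 kb and Pcdhb12 the farthest at 204.4 kb. The first 11 genes, up to Pcdhb11 at 201.4 kb, were closer to the Strong boundary on the alpha side. The last 11, from Pcdhb12 to Pcdhb22 at 122.1 kb, were closer to the Weak boundary at Taf7. Pcdhb1 stood 29.9 kb before Pcdhb2, apart from the others. Pcdhb8 lay 135.1 kb and Pcdhb9 180.9 kb from a boundary, on either side of the widest step of the cluster.

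Within gamma, the distance rose from Pcdhga1 (16.8 kb), the member nearest to any boundary, through Pcdhga5 (49.4 kb) to Pcdhga12 (114.4 kb). The A-type and B-type genes are interspersed along this cluster and take their names from the similarity of their variable exons. Both types fell on the same line: Pcdhga7 lay 69.8 kb and Pcdhgb4, the next gene, 75.4 kb away. From Pcdhga12 onwards the nearest boundary was the Weak one in Diaph1. Pcdhgc3 lay 73.6 kb, Pcdhgc4 64.9 kb and Pcdhgc5 60.5 kb from it. All 21 gamma genes thus had a Weak boundary as their nearest, against 11 of 22 beta genes and 12 of 14 alpha genes. Neighbouring genes share these few boundaries, so the counts are not independent. The share over all protein-coding genes was not counted.

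**Figure D3:**
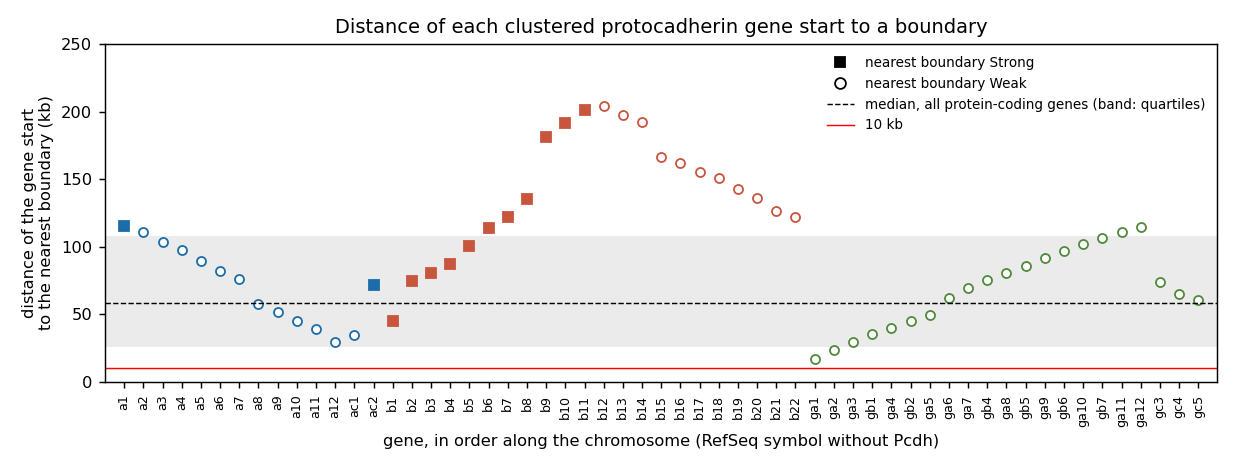
Distance of each gene start to the nearest base of the nearest boundary (vertical axis, kb) for the 57 genes in their order along the chromosome (horizontal axis, RefSeq symbols without the prefix Pcdh; alpha blue, beta red, gamma green). Filled squares have a Strong and open circles a Weak nearest boundary, and the dashed line and band are the median and quartiles of all protein-coding genes. No gene lies below the line at 10 kb, and the beta genes peak at 204.4 kb.

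The constant exons add to this picture for alpha and gamma. The 3 constant coding exons of alpha, of 59, 89 and 308 bp of coding sequence, are shared by all 14 alpha genes. They lay at 37156155 to 37156213, 37159265 to 37159353 and 37184946 to 37185253, in the interval of Pcdhac1 and Pcdhac2. The Weak boundary inside alpha therefore lay between the variable exons of Pcdha1 to Pcdha12 and the constant exons to which they are spliced. The 3 constant coding exons of gamma (59, 89 and 224 bp, from 37825021 to 37840126), shared by all 21 gamma genes, lay in the same interval as all gamma variable exons.

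Seen by gene body, a boundary lay within 12 of 14 alpha records and within none of the 22 beta and 21 gamma records. The 12 were all alpha genes other than Pcdhac1 and Pcdhac2. Their records overlap each other and hold the same Weak boundary, so they are not independent counts. The share of all protein-coding genes that hold a boundary was not counted. Alpha gene bodies ran from 44.2 to 257.5 kb, because each reaches to the shared constant exons. Gamma bodies, from 22.4 to 180.1 kb, are built in the same way, and beta bodies ran from 2.59 to 8.70 kb. The read-through records Gm42416 (887.5 kb), Gm37013 (863.4 kb) and Gm37388 (857.4 kb), which reach from alpha into gamma, each overlapped all 3 boundaries of the span.

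Few protein-coding genes other than protocadherins start in the span. Besides the read-through records they were Slc25a2, whose start lay 1.26 kb from the boundary between beta and gamma, and Taf7, which lies in it. Both are on the − strand. Their boundary is thus the only one of the 3 with a protein-coding start within 10 kb. Noncoding records start in each cluster: 9 in alpha, 3 in beta and 8 in gamma, Pcdhgb8 counted with the latter. Antisense records cover member starts in each cluster. In alpha Gm10545 (11.8 kb) covers those of Pcdha12 and of a Pcdha11 record, and Gm37753 that of Pcdha6. In beta Gm37446 covers the start of Pcdhb12. In gamma Gm37165 covers those of Pcdhga7, Pcdhgb4 and Pcdhga8, and BC037039 that of Pcdhgc3. Gm26672, a − strand record annotated as a processed transcript, covers those of Pcdhga10, Pcdhgb7, Pcdhga11 and Pcdhga12.

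CTCF consensus matches were searched in the reference sequence, on both strands, with the 12-letter consensus used in earlier work on this list. A match describes sequence, not binding. No promoter of the 57 members, taken as 250 bp before to 50 bp after the gene start, held an exact match, against 0.561% of all protein-coding promoters (122 of 21755). With 1 mismatch allowed the count was still 0 of 57, against 4.80% of all. This says only that these letters are not in these windows.

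The matches of alpha and beta were instead found inside the first coding exon, which in these genes is the variable exon of 2316 to 2562 bp. This was looked at after the matches had been seen. Exact matches stood in the exons of 19 of 57 members, 6 alpha, 13 beta and 0 gamma. Over all protein-coding genes the share was 0.294% (64 of 21755, the 19 included), but their first coding exons are mostly short, with a median of 130 bp. Of 158 other genes whose first coding exon is at least as long as the shortest of the members, 3 held a match (1.90%).

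Within each cluster the exact matches had 1 orientation and 1 place. The 6 alpha matches (Pcdha1, Pcdha4, Pcdha6, Pcdha7, Pcdha8 and Pcdha12) were all on the + strand, 456 to 459 bp from the first coding base. The 13 beta matches (Pcdhb3, Pcdhb4, Pcdhb5, Pcdhb10, Pcdhb12 to Pcdhb17 and Pcdhb20 to Pcdhb22) were all on the − strand, 2182 to 2206 bp from the first coding base. The exons of a cluster are copies of related sequence, so these matches are not independent of each other. Pcdhac1, Pcdhac2 and Pcdhb1 had no exact match.

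With 1 mismatch allowed, 32 of 57 members (56.1%) had a match in the first coding exon, against 3.94% of all protein-coding genes and 24.7% of the 158 other long exons. Places were counted from the first coding base. Within 50 bp of the place of the exact matches, and on the same strand, this added 2 alpha genes (Pcdha5 and the record RefSeq names Pcdha10) and 3 beta genes (Pcdhb6, Pcdhb8 and Pcdhb11). Other matches with 1 mismatch did not keep to this distance from the first coding base or to this orientation. On the opposite strand they stood in Pcdha4, Pcdhac1, Pcdhb8 and Pcdhb16, and on the same strand at other distances in Pcdha9, Pcdha12, the second Pcdha11 record, Pcdhb7 and Pcdhb9. Counted back from the exon end, however, 3 of these fell among the exact matches. Pcdha9 stood at 1923 bp (exact alpha matches 1887 to 1926 bp). Pcdhb7 stood at 176 bp and Pcdhb9 at 161 bp (exact beta matches 107 to 188 bp). The 3 gamma genes with such a match, Pcdhgb1, Pcdhga8 and Pcdhgb7, had it at scattered places on the − strand. By length, exact matches numbered 178.3 per Mb of alpha and 247.5 per Mb of beta first coding exons, against 7.71 per Mb of all annotated coding sequence, which includes them.

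**Figure D4:**
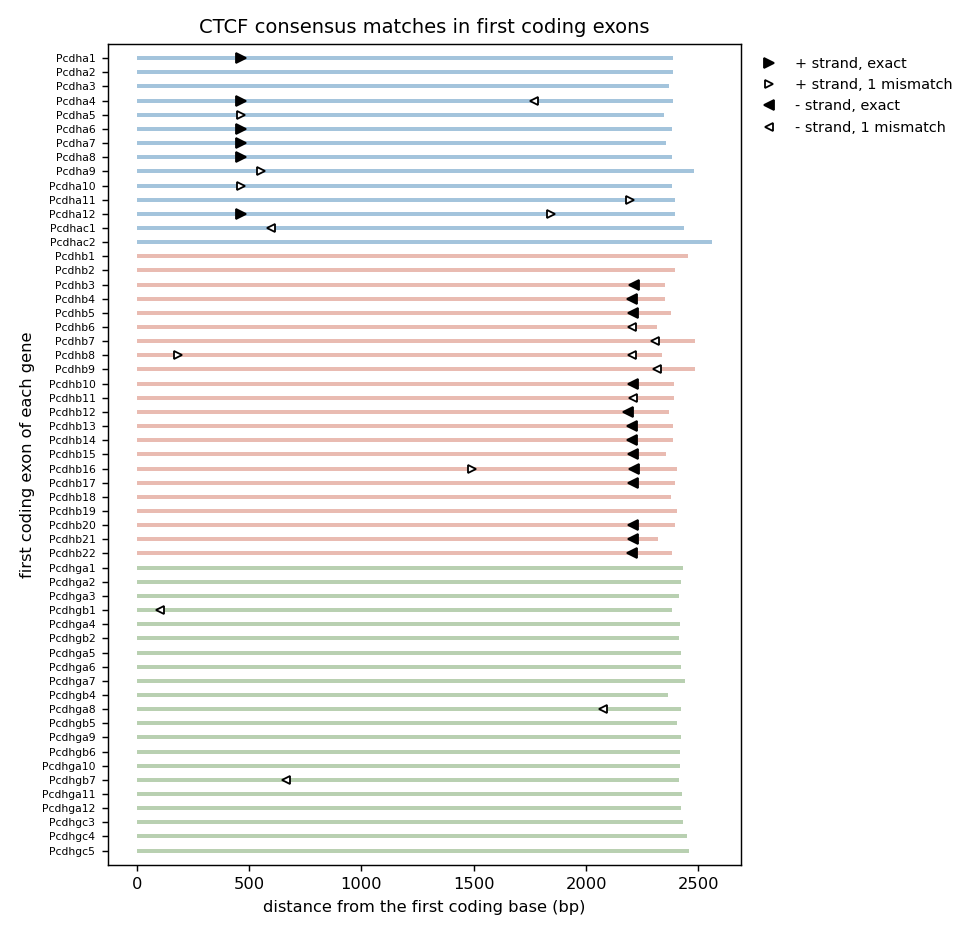
CTCF consensus matches along the first coding exon of each of the 57 genes. The horizontal axis is the distance from the first coding base in bp, each bar is 1 exon to scale (alpha blue, beta red, gamma green), and triangles point right for matches on the + strand and left for the − strand, filled for exact matches and open for 1 mismatch. Filled triangles line up near 456 bp in alpha and near 2203 bp in beta, and gamma has none.

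The boundaries themselves were compared with the matches. Of the 13 boundaries of the region, 7 (53.8%) had an exact match within 10 kb, against 23.1% of the list and 26.3% of those on chromosome 18. The region itself was also denser in exact matches. They numbered 12 per Mb before, 21.9 within and 7 after the span, against 4.37 on chromosome 18. Whether its boundaries differ from other windows of the region was not tested. Among the 3 within the span only the Strong boundary between alpha and beta did. It holds a − strand match at 37217468, opposite to the 6 exact alpha matches and on the strand of the 13 exact beta matches. The Weak boundary after gamma holds a − strand match at 37883728, and another lies 2.17 kb from it. The strongest boundary, before alpha, had none within 10 kb, although it holds 1 match with 1 mismatch. The exonic matches lay between 29.3 kb (in Pcdha12) and 202.0 kb (in Pcdhb12) from the nearest boundary.

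Sequence can bear on where contacts are measured, since reads from repeated sequence are hard to place and fragments end at DpnII sites. In alpha 83.2% of 50 bp words occurred only at 1 place in the genome, in beta 87.6% and in gamma 96.3%, against 91.4% on chromosome 18. The 1 Mb stretches on either side had 94.4 and 97.0%. The first coding exons ranged from 72.2% (Pcdha6) to 100% in alpha, with Pcdhac1 and Pcdhac2 at 100%. The range was 81.7% (Pcdhb11) to 100% (Pcdhb1) in beta and 81.0% (Pcdhgb2) to 100% in gamma.

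Alpha and beta also held more sequence masked as repeats. Soft-masked sequence made up 40.1% of alpha, 38.0% of beta and 20.5% of gamma, against 31.7% of chromosome 18. The Weak boundary inside alpha was 78.7% soft-masked, more than 95.8% of the boundaries of the list, whose median was 27.9%. Of its 50 bp words 79.4% were unique, the lowest share among the 13 boundaries of the region, whose others ranged from 92.3 to 100%. The boundaries between alpha and beta and between beta and gamma were 15.3 and 19.4% soft-masked. DpnII sites were slightly denser in the clusters (2.79 per kb in alpha, 2.63 in beta and 2.94 in gamma) than on chromosome 18 (2.47 per kb). Whether repeats or unplaced reads bear on the number or the scores of boundaries here was not tested.

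Other genes in tandem gave a range into which the protocadherins fell. The protocadherin span had 3.29 boundaries per Mb, against 2.86 on chromosome 18. The 33 olfactory receptor clusters had 2.58 per Mb together (0 to 7.54 in single clusters), the 4 keratin clusters 2.49, the 9 type 2 and 10 type 1 vomeronasal receptor clusters 1.66 and 1.41, and the 4 Hox clusters 6.10. In these families 5.68, 1.90, 2.04, 3.98 and 12.8% of clustered genes started within 10 kb of a boundary. A low share near boundaries was thus shared with the receptor and keratin families and not with Hox. The number of boundaries per length was not low over the whole span, which includes the gaps between clusters. Within the clusters it was 3.88 per Mb in alpha and 0 in both beta and gamma, since the other boundaries of the span lay in those gaps.

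Other cadherin genes, on chromosome 18 and elsewhere, differ in layout. The 9 desmosomal cadherins (Dsc1 to Dsc3 and the Dsg genes), which hold epithelial cells together, start in 1 interval, with no boundary in their 643.6 kb. None of them started within 10 kb of a boundary, the median distance was 179.6 kb, and the farthest were Dsg1a (294.2 kb) and Dsg1c (357.7 kb). With 9 genes the exact 95% interval of this share reaches 33.6%, which covers the 12.4% of all genes. Of the 12 protocadherin genes outside the clusters, 1 started within 10 kb of a boundary (8.33%, against 12.4% of all genes). The exact 95% interval, 0.211 to 38.5%, covers the share of all genes. The median distance of these 12 genes was 37.2 kb, against 58.4 kb for all genes. The gene within 10 kb was Pcdh9, at 9.32 kb from a Strong boundary with a score of 2.95. The farthest were Pcdh15 (330.7 kb) and Pcdh11x (374.7 kb). Pcdh12 and Pcdh1, which belong to this list and lie past the gamma cluster in the interval after the Strong boundary at Arap3, started 10.6 and 82.9 kb from the boundary at Rnf14.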

How the data were processed

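The series design text says that the authors took boundaries from a contact matrix in which both replicates of the Olfr16 group were combined. The submitters' processing notes name GRCm38. The deposited list gives each boundary a score and a class, and columns of other content (position, class), per the file's values. How boundaries were called and scored is not given in the sources used here, nor are the aligner and its filters. Depth per replicate is unknown.

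Distances run from the gene start in GENCODE M21 to the nearest base of a boundary. Intervals lie between adjacent boundaries. Motif matches, soft-masked bases, DpnII sites and unique words were read from the RefSeq GRCm38.p6 sequence (Python 3.11.15, numpy 2.4.6, pandas 2.3.3, scipy 1.17.1 for exact binomial intervals). Tandem clusters have 5 or more genes, none over 500 kb from the next. The scan and the distances were tested on simulated data.

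Members, lists and alternatives were chosen with earlier results of these data known. Named genes were the first, last, nearest and farthest of each cluster, C-type genes, genes at boundaries and other coding genes in the span, and, in the other lists, those within 10 kb and the 2 farthest. Others named were chosen after their values were seen. No sequence of this region is printed.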

Additional observations from a re-analysis of the deposited data

How the results depend on the processing

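Over 6 results 18 alternatives were run. Of these, 13 left a share within its exact 95% interval or a count within 1.5 times that reported. The share of members near a boundary was 0% within 5 kb, with 5 kb bins, with Strong boundaries only and from the first coding base, 3.51% within 25 kb and 21.1% within 50 kb. The settings that gave 0% were fixed in advance, since no member lay within 10 kb and the nearest lay 16.8 kb from a boundary. They are among the 13 and add no support. The fullest interval held 22 members with all boundaries, and 43 both with Strong boundaries only and with boundaries scored at or above the list's median. Strong boundaries alone left 1 within the span. The share of first coding exons with a consensus match was 33.3% for exact matches and 56.1% with 1 mismatch, an alternative added after seeing the data. In the flanks the Strong share was 60.0% at 1 Mb, 80.0% at 500 kb and 56.3% at 2 Mb. No paired analysis was possible because the deposited list combines both replicates, and for the same reason neither replicate could be left out.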

Other observations

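Genes of proteins that act on the clusters were placed in the same way. Of 14 such genes, 2 started within 10 kb of a boundary (14.3%, against 12.4% of all genes): Mau2 inside a Strong boundary with a score of 0.528, and Nipbl 5.54 kb from a Weak boundary. Their products load the cohesin ring together. The farthest were Wapl, whose product releases cohesin (98.9 kb), and Stag2, which encodes a cohesin subunit (129.3 kb).

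Of 41 further genes of the cadherin superfamily, 3 started within 10 kb of a boundary (7.32%, against 12.4% of all genes). They were Celsr1 (1.22 kb), a planar cell polarity gene, Cdhr2 (6.46 kb), a gene of the intestinal brush border, and Clstn2 (6.82 kb), which encodes a synaptic calsyntenin. The farthest were Cdh7 (627.6 kb) and Cdh18 (664.0 kb), which encode type II cadherins. The exact 95% interval of the share, 1.54 to 19.9%, covers the share of all genes. The median distance of the 41 genes was 51.8 kb, against 58.4 kb for all genes.

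Exact CTCF consensus matches numbered 12 in the 1 Mb before and 7 in the 1 Mb after the protocadherin clusters, against 4.37 per Mb on chromosome 18.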
